A study of Homo sapiens with 6 samples.

Results

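The AP-1 transcription factors were read here through 10 genes: FOS, FOSB, FOSL1, FOSL2, JUN, JUNB, JUND, ATF3, BATF and MAFF. They are 10 of the 19775 genes that the array reads with a probe set of their own. Every probe set annotated to exactly 1 of these genes was taken, which gave 23 of the 54613 probe sets that are not controls, and none was removed for low signal. The samples were derivatives of SKOV3.ip1, a human ovarian carcinoma cell line, stably transfected with mutant PEA-15. The S116D line (3 arrays) carried phosphomimetic PEA-15, in which the sample characteristics name both Ser104 and Ser116 as turned into aspartic acid, while its title names only the Ser116 change and the protocol text gives a single residue under another number. The S116A line (3 arrays) carried PEA-15 with Ser116 alone turned into alanine, which cannot be phosphorylated, so the lines may differ at a further site. Both lines grew in serum-containing medium, and no untransfected or empty-vector array was analysed here. The labels do not give the vector promoter, whether a line was 1 clone or a pool, or whether its arrays came from separate cultures, so p-values reflect array-to-array spread alone, and that spread may be technical.

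AP-1 is a dimer of proteins with a basic region, which contacts DNA, and a leucine zipper, which holds the partners together. JUN proteins pair with themselves or with FOS proteins, and the best known binding site is the TPA response element. Many of these genes are switched on quickly by growth factor or stress signals through ERK, JNK and p38 kinases, and PEA-15 binds ERK in the cytoplasm. FOSL1 and FOSL2 encode FRA-1 and FRA-2, FOS relatives that are often expressed in growing carcinoma cells.

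FOSL2 was called higher in S116D on all 5 of its probe sets, by 1.30-fold to 1.93-fold. FOSL1 was called lower, by 1.73-fold. Among the JUN genes, 1 dim JUND probe set was called lower and no probe set of JUN or JUNB passed. ATF3 read 2.51-fold lower in S116D on its brightest probe set without passing the threshold. A probe set was called at a limma adjusted p under 0.05, with Benjamini-Hochberg adjustment over all 54613 probe sets. Of the 23 member probe sets 7 were called (30.4%), 5 higher and 2 lower, against a background of 8.55% of all probe sets, 4.36% higher and 4.19% lower. With 1 array left out, 5, 2 and 4 member probe sets were called without S116D 1, 2 and 3. Without S116A 1, 2 and 3 they numbered 1, 3 and 5. Each count of 5 includes a probe set not among the 7, of JUND without S116D 1 and of ATF3 without S116A 3. The 7 of the main fit belonged to 3 of the 10 genes, and all 5 higher ones were of FOSL2, so the 30.4% rests largely on 1 gene. On the brightest probe set of each gene 2 of the 10 members were called, FOSL2 and FOSL1, against 11.0% of 19775 genes. The median log2 difference of the 23, S116D minus S116A, was -0.13, against 0.0030 over all probe sets.

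The sequences before the start sites of FOSL2, FOS, FOSB, JUN and ATF3 are shown to compare FOSL2, which was called, with relatives that share an element with it, and JUN with ATF3, which share another. Sequences of 9 of the 10 members, all but FOSL1, were matched by symbol in RefSeq (GRCh38.p14). Only the first listed start site of each gene was used, and the 250 bases before it were read on the strand of the gene. Both strands were searched for the TPA response element TGACTCA, the cAMP response element TGACGTCA, its core TGACGT, the JUN-type element TGACATCA, the C/EBP-ATF element TGATGCAA and the CArG box of serum response factor. The core was added after sequences of members had been read, and it overlaps every cAMP response element. Capitals mark matches.
FOSL2, chr2:28392608-28392857, plus strand: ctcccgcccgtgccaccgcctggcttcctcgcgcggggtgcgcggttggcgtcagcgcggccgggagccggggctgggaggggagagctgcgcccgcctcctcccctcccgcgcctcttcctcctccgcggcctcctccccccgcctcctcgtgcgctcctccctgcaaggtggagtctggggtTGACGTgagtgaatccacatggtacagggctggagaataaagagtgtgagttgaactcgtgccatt
FOS, chr14:75278578-75278827, plus strand: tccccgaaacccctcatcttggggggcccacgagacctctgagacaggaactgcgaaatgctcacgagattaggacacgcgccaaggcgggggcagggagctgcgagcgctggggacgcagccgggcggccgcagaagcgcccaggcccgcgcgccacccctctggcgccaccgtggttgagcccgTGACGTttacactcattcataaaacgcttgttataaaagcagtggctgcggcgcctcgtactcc
FOSB, chr19:45467746-45467995, plus strand: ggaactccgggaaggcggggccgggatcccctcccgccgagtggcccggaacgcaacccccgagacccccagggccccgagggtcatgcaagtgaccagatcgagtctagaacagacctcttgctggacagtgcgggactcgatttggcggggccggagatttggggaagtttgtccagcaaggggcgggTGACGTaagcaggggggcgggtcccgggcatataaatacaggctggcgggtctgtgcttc
JUN, chr1:58784048-58784297, minus strand: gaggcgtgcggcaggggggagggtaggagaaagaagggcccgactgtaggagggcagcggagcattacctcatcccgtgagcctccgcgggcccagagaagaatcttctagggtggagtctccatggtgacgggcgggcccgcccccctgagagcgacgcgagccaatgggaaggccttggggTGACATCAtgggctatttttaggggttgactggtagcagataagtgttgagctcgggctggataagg
ATF3, chr1:212565157-212565406, plus strand: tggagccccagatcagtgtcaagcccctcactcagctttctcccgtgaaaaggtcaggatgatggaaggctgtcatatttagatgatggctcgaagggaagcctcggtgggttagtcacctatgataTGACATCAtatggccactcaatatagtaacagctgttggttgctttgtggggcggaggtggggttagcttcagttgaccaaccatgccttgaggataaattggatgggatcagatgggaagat

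The TGACGT core began 66 bases before the start site of FOSL2, 64 before that of FOS and 60 before that of FOSB. JUND and MAFF also held it, making 5 of 9 members, against 7.42% of 27305 upstream windows of the same length. The core was picked after sequences of members had been read, so this count is a description and no test. Full cAMP response elements were present in JUND and MAFF (1.77% of all windows). The JUN-type element began 67 bases before the start site used for JUN and 123 before that used for ATF3 (2.45% of all windows). Other start sites of these genes were not searched. None of the 9 windows held TGACTCA (4.16% of all windows), TGATGCAA (0.820%) or a CArG box (1.14%), and FOSL1 was not searched. A match describes the letters and is no evidence of binding, and no match says only that these letters are not in this window.

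FOSL2 encodes FRA-2, which lacks the strong activation domain of FOS. On its brightest probe set FOSL2 had log2 signals of 13.12, 12.72 and 12.51 in S116D, against 12.04, 12.16 and 11.40 in S116A. The lines did not overlap, and S116A 3 was the lowest array. The difference was 0.92 ± 0.21 (SE), or 1.89-fold (limma adjusted p = 0.033). The second brightest FOSL2 probe set read 11.18, 11.22 and 11.24 in S116D, against 10.55, 10.53 and 10.18 in S116A. The S116D arrays nearly coincided there, and this probe set had the smallest p of all 23, with a difference of 0.79 ± 0.11 (SE; limma adjusted p = 0.0032). The third read 10.06, 9.35 and 9.44 in S116D, against 8.73, 8.97 and 8.32 in S116A, again without overlap, a difference of 0.95 ± 0.21 (SE; limma adjusted p = 0.029). The dimmest FOSL2 probe sets differed by 0.38 and 0.45 (limma adjusted p = 0.019 and 0.040). Averaged over its 5 probe sets, FOSL2 differed by 0.70 ± 0.13 (SE; limma adjusted p = 0.010 over all genes).

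The arrays also fell into sets that match no label, with S116D 1, S116A 1 and S116A 2 apart from S116D 2, S116D 3 and S116A 3 on the second principal component. The sets were drawn from the same values that were tested, so p-values with them as a block may be too small. Within the sets FOSL2 differed by 1.02 and 1.22 on its brightest probe set and by 0.63 and 1.04 on the second. The lines did not overlap on either, so the direction within the sets was fixed in advance and is no added support. The second brightest probe set remained called whichever single array was left out (limma adjusted p from 0.0028 to 0.020). The brightest lost its call without S116D 1, S116D 2 or S116A 1 (limma adjusted p = 0.069, 0.095 and 0.069), and its difference ranged from 0.68 to 1.07 over the 6 omissions. The third lost its call without S116D 3, S116A 1 or S116A 3 (up to 0.087). Of the dimmest, 1 lost it without S116D 2, S116A 1 or S116A 2 (up to 0.075) and the other in every omission but that of S116D 3 (up to 0.12). The arrays read bulk RNA, so a change in each cell and a change in the share of cells that express a gene cannot be told apart.

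**Figure D1:**
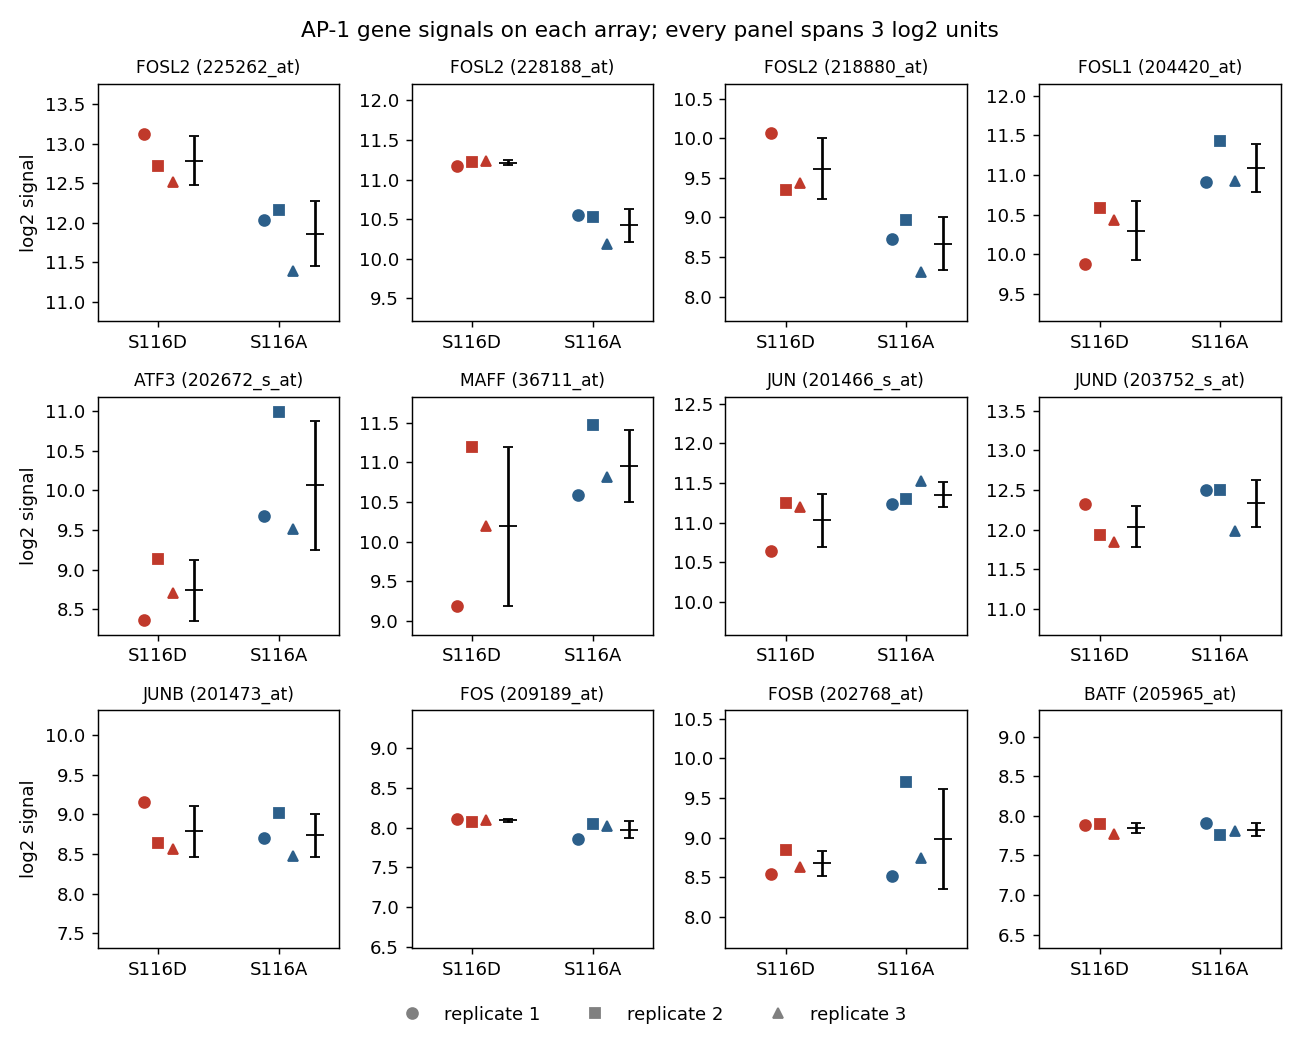
Log2 signal (vertical axes of equal span) of AP-1 probe sets on the S116D arrays (left) and the S116A arrays (right), with the mean and SD of each line (n = 3). The lines separate for FOSL2, FOSL1, ATF3 and, by a small margin, FOS, and S116A 2 stands high for ATF3 and FOSB.

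FOSL1 encodes FRA-1, a FOS relative linked to invasion and sustained by ERK signalling. Its single probe set read 9.87, 10.58 and 10.44 in S116D, against 10.91, 11.43 and 10.92 in S116A. The lines did not overlap, and S116D 1 was the lowest and S116A 2 the highest array. The difference was -0.79 ± 0.20 (SE), just inside the threshold (limma adjusted p = 0.048). It was -1.30 and -0.41 within the array sets. Each omission of 1 array ended the call, at limma adjusted p of 0.070, 0.057 and 0.096 without S116D 1, 2 and 3 and of 0.089, 0.15 and 0.055 without S116A 1, 2 and 3. The difference then ranged from -0.93 to -0.58. Quantile normalization (0.067) and a variance prior without intensity trend (0.053) also ended the call.

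FOSL2 and FOSL1 differed in opposite directions. The log2 signal of the brightest FOSL2 probe set minus that of FOSL1 was 3.24, 2.14 and 2.07 in S116D, against 1.13, 0.73 and 0.48 in S116A. Every S116D array lay above every S116A array, by 1.71 on average. Probe sets differ in response, so this value is read only between lines and not as a level. The pair was chosen after the values were seen, and both probe sets were already separate between lines, so this is a description with no test.

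FOS, the prototype immediate-early gene, read 8.11, 8.07 and 8.10 in S116D, against 7.85, 8.04 and 8.02 in S116A. The lines were separate by a narrow margin, as for 24.0% of all probe sets in either direction. The FOS difference of 0.12 did not pass (95% interval -0.049 to 0.29, limma adjusted p = 0.47). FOSB, which is induced alongside FOS, read 8.54, 8.85 and 8.63 in S116D, against 8.51, 9.70 and 8.75 in S116A. S116A 2 alone stood high, and the difference of -0.31 did not pass (95% interval -0.92 to 0.30, limma adjusted p = 0.64). Without S116A 2 it was 0.045.

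**Figure D2:**
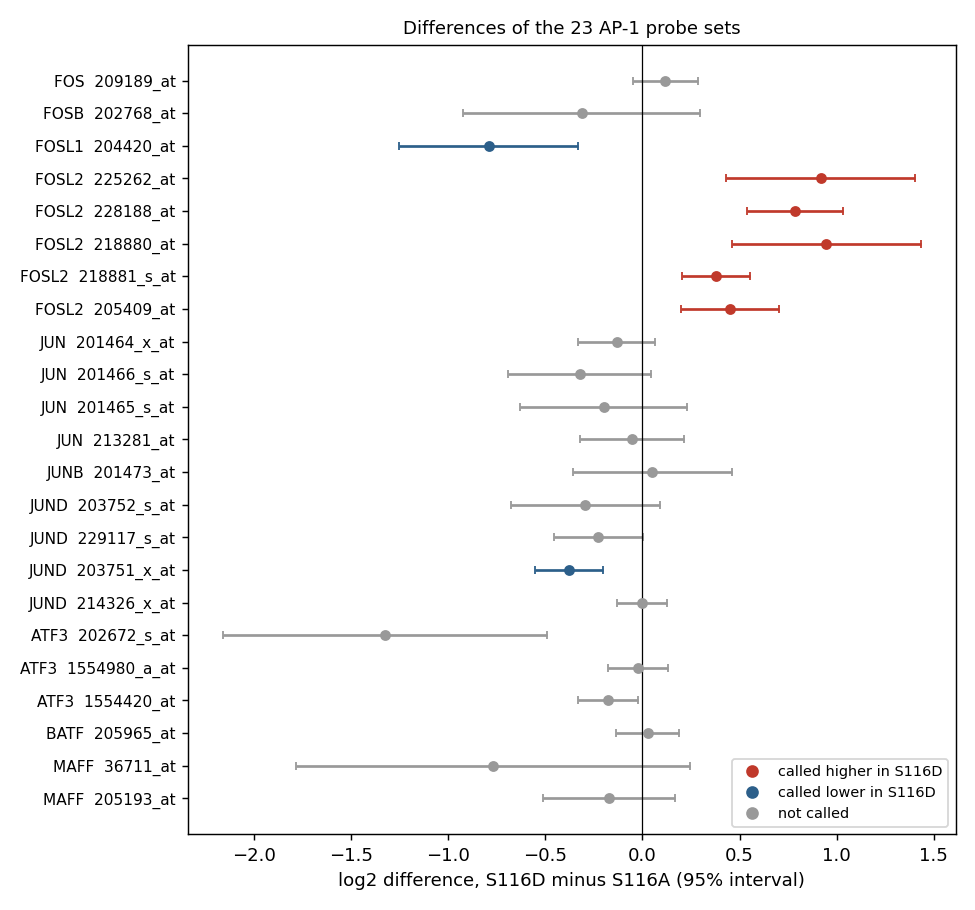
Log2 difference, S116D minus S116A, of each of the 23 AP-1 probe sets (points) with limma's 95% interval (bars), by gene. The 5 FOSL2 probe sets lie above 0, the FOSL1 probe set and 1 of JUND were called below 0, and the brightest ATF3 and MAFF probe sets have the widest intervals.

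The JUN family supplies partners that FOS proteins need. JUN, the founding member and a substrate of JNK, was read by 4 probe sets, none of which passed, with differences from -0.32 to -0.052. On the second brightest JUN had 10.65, 11.25 and 11.20 in S116D, against 11.23, 11.30 and 11.53 in S116A. S116D 1 was the low array, and the ranges overlapped. The difference of -0.32 ± 0.16 (SE) had a limma adjusted p of 0.33. With the array sets as a block this probe set (-0.46, limma adjusted p = 0.0034) and the third (-0.38, 0.011) were called lower. Within the sets their differences were -0.62 and -0.30 and, for the third, -0.42 and -0.33. The sets were drawn from these same values, so the blocked p-values may be too small and are no added support.

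JUNB, which restrains JUN in many cells, read 9.15, 8.64 and 8.57 in S116D, against 8.70, 9.02 and 8.48 in S116A. The ranges overlapped widely, and the difference was 0.051 (95% interval -0.36 to 0.46, limma adjusted p = 0.94). JUND is the JUN gene least dependent on stimulation. Its brightest probe set read 12.33, 11.94 and 11.84 in S116D, against 12.50, 12.51 and 11.99 in S116A, which overlapped (-0.29, limma adjusted p = 0.42). The JUND probe set that was called was below the median signal, at 6.60, 6.38 and 6.40 in S116D, against 6.93, 6.79 and 6.79 in S116A. It differed by -0.38 ± 0.077 (SE; limma adjusted p = 0.019) and lost its call without S116D 2, S116D 3, S116A 1 or S116A 2 (up to 0.080). The other dim JUND probe sets differed by -0.23 and -0.0026 and did not pass, though the first was called without S116D 1 (-0.34, limma adjusted p = 0.025).

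ATF3, a stress-induced factor that can repress as a homodimer, read 8.36, 9.14 and 8.71 in S116D, against 9.68, 10.99 and 9.51 in S116A on its brightest probe set. The lines did not overlap, and S116A 2 was far above the other S116A arrays. The difference, -1.33 ± 0.36 (SE), was the largest of the 23 in size but missed the threshold (limma adjusted p = 0.063). It was -1.98 and -0.59 within the array sets. It was called with array weights (limma adjusted p = 0.041) and with the sets as a block (0.043), where the p-value may be too small. Without S116A 2 it was -0.86 (limma adjusted p = 0.067), and without S116A 3 it was -1.60 and called (0.034). The dimmest ATF3 probe set was also separate between lines (-0.18, limma adjusted p = 0.18), whereas the second differed by -0.023 (0.93). Averaged over its 3 probe sets ATF3 was called lower, with a difference of -0.51 ± 0.12 (SE; limma adjusted p = 0.031 over all genes). The same averages did not pass for JUND (-0.23, limma adjusted p = 0.12), JUN (-0.18, 0.50) or MAFF (-0.47, 0.41).

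MAFF is a small MAF protein without an activation domain. Its brighter probe set read 9.18, 11.19 and 10.20 in S116D, against 10.59, 11.47 and 10.82 in S116A. The S116D arrays spanned more than the difference between lines (-0.77 ± 0.44, SE; limma adjusted p = 0.43), with S116D 1 lowest. Without S116D 1 the difference was -0.26, and without S116D 2 it was -1.27. The other MAFF probe set differed by -0.17 (0.66). BATF, a factor of lymphoid cells, read 7.88, 7.89 and 7.78 in S116D, against 7.91, 7.75 and 7.80 in S116A. These lay near the median probe-set signal of 7.89, with a difference of 0.028 (95% interval -0.13 to 0.19, limma adjusted p = 0.91).

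Several members shared an array pattern beside the line difference. FOSB, FOSL1, the brightest ATF3 probe set and both MAFF probe sets had their highest S116A value in S116A 2 and their lowest S116D value in S116D 1. This held for 5 of 23 member probe sets and 10.3% of all probe sets. These arrays were picked with the member values in view, and MAFF is counted on both its probe sets, so the count is a description with no test. FOSL2 followed the pattern in part: S116A 2 was its highest S116A array on 4 of 5 probe sets, but S116D 1 was its highest S116D array on 4 of 5. Of 24 other immediate-early genes measured, S116A 2 was the highest S116A array for 13, S116D 1 the lowest S116D array for 11, and both held for 5. Of 30 AP-1 target genes the same counts were 16, 11 and 5. Over all probe sets S116A 2 was the highest S116A array for 28.1% and S116D 1 the lowest S116D array for 38.4%.

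**Figure D3:**
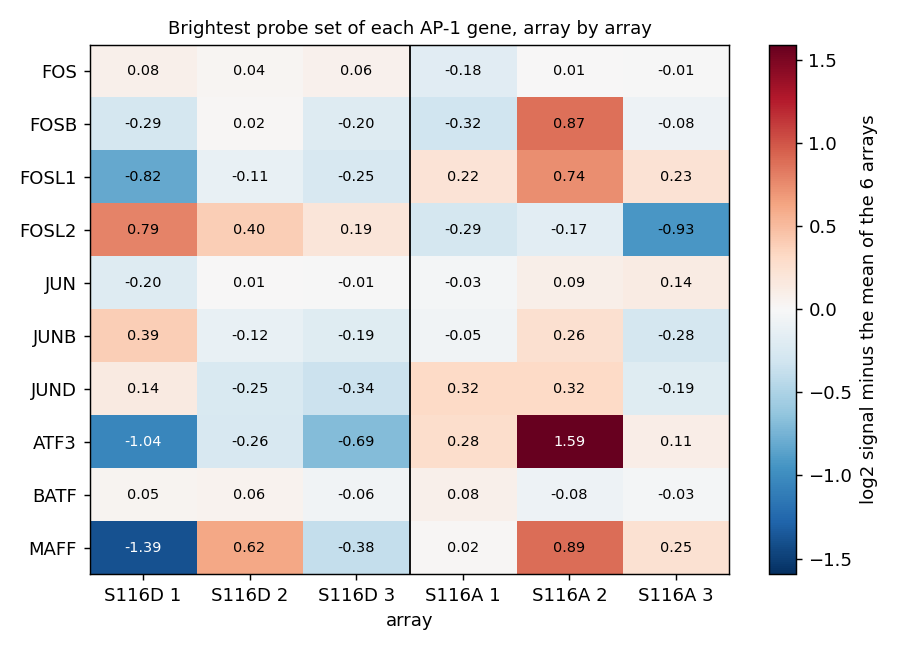
Log2 signal of the brightest probe set of each AP-1 gene on each array, minus the mean of the 6 arrays (colour and printed value), with S116D left of the line and S116A right of it. FOSL2 is above 0 on every S116D array and below 0 on every S116A array, and S116A 2 holds the highest value of FOSB, FOSL1, ATF3 and MAFF.

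The other genes of the pathway were counted on the brightest probe set of each gene, where 11.0% of 19775 genes were called, 6.13% higher and 4.82% lower. Among 22 measured bZIP factors that can pair with AP-1 proteins or their relatives, 2 were higher, 2 lower and 18 did not pass, with a median difference of -0.042 against 0.0064 for all genes. CEBPD, a stress-induced C/EBP factor, read 9.98 ± 0.21 in S116D and 9.10 ± 0.49 in S116A (SD, n = 3 each; limma adjusted p = 0.046). NFE2L3, a dim CNC factor, read 6.97 ± 0.34 in S116D and 6.19 ± 0.15 in S116A (0.017 by limma). Lower in S116D were MAFG, a small MAF protein like MAFF, at 10.31 ± 0.068 in S116D and 10.76 ± 0.079 in S116A, and CEBPG, a partner of ATF4, at 10.81 ± 0.063 in S116D and 11.18 ± 0.11 in S116A (limma adjusted p = 0.011 and 0.031). NFE2L3 was called on 2 of 2 probe sets, and CEBPD, MAFG and CEBPG on 1 of 2 each. NFE2L3 and MAFG lost their calls without S116D 3 or S116A 2 (up to 0.077), and CEBPD and CEBPG in every omission but that of S116A 2 (up to 0.16). CEBPD also lost it with median centring (0.052) and with no variance trend (0.052). The list counted 0 higher and 0 lower in limma without S116D 3, and 1 higher and 1 lower without S116D 1, S116D 2 or S116A 1.

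Upstream of AP-1, 3 of 21 measured genes of the MAP kinase pathways were higher in S116D, 1 lower and 17 did not pass (median 0.019). MAPK13, the p38 delta gene, differed by 0.81 ± 0.13 (SE; limma adjusted p = 0.0073), was called on both of its probe sets, and kept its call without any single array. MAP2K6, which activates p38 kinases, differed by 0.42, and RPS6KA5, a kinase that ERK and p38 activate, by 0.47 (limma adjusted p = 0.027 and 0.020). MAP2K6 was called on 1 of 2 probe sets and RPS6KA5 on 1 of 3. HRAS, a small GTPase above ERK, differed by -0.45 (limma adjusted p = 0.011). These last 3 calls ended without S116D 2 or S116D 3, that of MAP2K6 also without S116A 1 or S116A 3, and that of RPS6KA5 also without S116A 2 (up to 0.10). The list counted 1 higher and 0 lower without S116D 2 or S116D 3.

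Of 6 genes for serum response factor and its partners, which drive FOS, 0 passed in limma and 2 had an unadjusted p under 0.05 (median -0.11). ELK3 and ELK4, the brightest of them, differed by -0.100 and 0.11. The list counted 0 higher and 1 lower without S116D 2 and with the array sets as a block. Of 12 cofactors and degradation factors of AP-1, 1 was lower and 11 did not pass (median -0.079). That gene was GSK3B, a kinase that marks JUN for destruction, which differed by -0.51 ± 0.079 (SE; limma adjusted p = 0.0053), with calls on 2 of 5 probe sets.

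Of 24 other immediate-early genes, 2 were lower, 0 higher and 22 did not pass (8.33% called, median -0.011). IER5, a growth and heat shock response gene, read 11.27, 11.34 and 11.28 in S116D, against 12.32, 12.13 and 12.11 in S116A. The lines were far apart, and the call held under every alternative run. MYC differed by -0.78 (limma adjusted p = 0.029), and its call ended without S116D 3 or any 1 of the S116A arrays (up to 0.092). EGR1, a zinc finger factor named here because its difference was large, read 11.77, 11.64 and 11.02 in S116D, against 9.52, 11.59 and 10.13 in S116A. S116A 2 lay within the S116D range, and the difference of 1.06 ± 0.46 (SE) did not pass (limma adjusted p = 0.24). The list counted 2 higher and 5 lower with the replicate block, 4 higher and 3 lower with the array sets as a block, and 0 higher and 1 lower without S116A 1 or S116D 3.

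Of 30 measured genes known as AP-1 targets in other settings, 6 were higher in S116D, 6 lower and 18 did not pass (40.0% called), with a median difference of 0.025. MMP1, interstitial collagenase, a classical AP-1 target, read 12.15, 11.65 and 12.10 in S116D, against 9.62, 9.82 and 9.73 in S116A. The lines were far apart, at 4.72-fold higher in S116D (limma adjusted p = 5.5e-05). TIMP1, an inhibitor of such proteases, was higher by 0.59 (limma adjusted p = 0.0059). LAMB3, a chain of laminin-332, had 9.24, 8.67 and 8.82 in S116D, against 11.26, 11.21 and 10.73 in S116A, 4.46-fold lower in S116D (limma adjusted p = 0.00029). CD44, a hyaluronan receptor, differed by -0.50 (limma adjusted p = 0.0031) with a call on 1 of 13 probe sets. The rest of the called targets are named after their values were seen. MMP10, HBEGF, IL6 and GSTP1 were higher, by 1.03, 0.49, 0.56 and 0.39, with IL6 dim, below the median signal. HMGA1, LIF, CCND1 and EZR differed by -1.33, -0.62, -0.53 and -0.40. HMGA1 was called on 1 of 2 probe sets, HBEGF on 2 of 4, EZR on 3 of 5 and CCND1 on 2 of 2. The calls of MMP1, TIMP1, LAMB3, CD44, HBEGF and EZR held without any single array, whereas MMP10, IL6, GSTP1, HMGA1, LIF and CCND1 each lost theirs without at least 1. GSTP1 also lost it with median centring (0.055) and LIF with no variance trend (0.051). The list counted 4 higher and 3 lower without S116D 2 or S116D 3 and 4 higher and 4 lower without S116A 1. MMP3, MMP9 and MMP13, other matrix protease genes also named after their values were seen, differed by -0.050, 0.069 and -0.018 and did not pass.

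**Figure D4:**
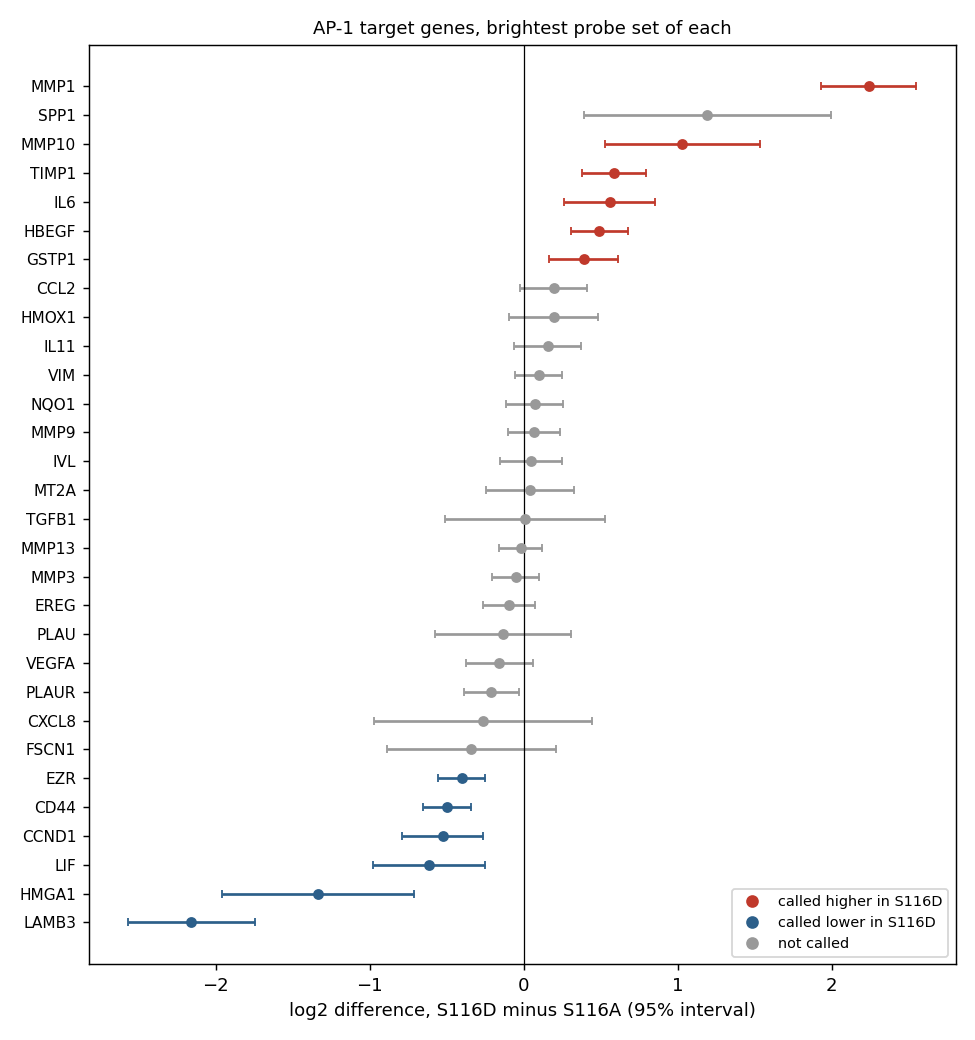
Log2 difference, S116D minus S116A, of 30 genes known as AP-1 targets on the brightest probe set of each (points) with limma's 95% interval (bars), sorted by size. MMP1 lies at 2.24 and LAMB3 at -2.16, with 6 genes called on either side of 0.

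The genes whose pattern over the 6 arrays was most like that of the second brightest FOSL2 probe set were RCN1, DPP4, ALDH18A1, SNRK and LEPROT, at Pearson r from 0.994 to 0.996. The arrays differ mainly by line, so such values are a description only. DPP4 differed by 1.98 and RCN1 by 0.18 on the log2 scale.

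Median log2 signals of the arrays ran from 7.86 to 7.89, and arrays correlated at r of at least 0.995 within a line and 0.987 between lines. The log2 signal of 3-prime over 5-prime control probe sets ran from 0.65 to 0.79 for GAPDH and from 2.27 to 2.47 for ACTB. The lines overlapped on both, and the bearing of these ratios on single probe sets was not tested. PEA15 differed by -0.19 and -0.061 on its probe sets and did not pass (limma adjusted p = 0.20 and 0.82), and it is not known which of them read the vector transcript. All 7 epithelial markers of ovarian carcinoma lay above the median signal, with mean log2 levels of 12.29 to 12.66 in S116D and 12.95 to 13.33 in S116A. Also above the median lay 2 of 4 leukocyte, 3 of 6 fibroblast and 2 of 4 endothelial markers, so that position alone does not tell the cell types apart. Of the 7 epithelial markers, 5 were called lower in S116D and 0 higher. The 5 differed by -2.26 (KRT19), -1.56 (KRT7), -0.90 (EPCAM), -0.70 (KRT18) and -0.39 (KRT8). The others, ERBB2 and PAX8, differed by 0.39 and 0.053 and did not pass (limma adjusted p = 0.56 and 0.83). The 5 lower calls became 3 without S116D 2, S116D 3 or S116A 1. KRT19 was called on 1 of 2 probe sets and KRT7 on 2 of 4. KRT19 and KRT7 differed by more than any AP-1 probe set, and the markers' part in the AP-1 differences was not tested. Leukocyte markers (0 of 4 called by limma, 0 at an unadjusted p under 0.05) averaged 7.82 to 7.88 in S116D and 7.80 to 7.88 in S116A. Fibroblast markers (0 of 6 called, 1 at an unadjusted p under 0.05) averaged 8.04 to 8.11 in S116D and 8.12 to 8.13 in S116A, and endothelial markers (1 of 4, KDR at -0.43) 7.20 to 7.32 in S116D and 7.36 to 7.46 in S116A.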

How the data were processed

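RNA of both lines was read on the Affymetrix HG-U133 Plus platform, 1 array per sample. The authors deposited 1 value per probe set and array, and these were read as log2 signals from their range. MAS5 and RMA both appear in the submitters' processing notes, with no role stated for either, and the sources used here do not give the background correction. Such summaries compress low signals, so differences of dim probe sets are uncertain in size. Of 54675 probe sets, 62 controls were left out. GEO's platform annotation, updated by gene identifier to RefSeq symbols (GRCh38.p14), gave 1 gene for 41091 probe sets, several for 1801 and none for 11721.

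Sample titles gave the groups. A linear model without covariates was fitted to S116D and S116A over 54613 probe sets by limma (version 3.58.1, under R 4.3.3; eBayes with intensity trend). P-values were adjusted by Benjamini-Hochberg, at a threshold of 0.05. SE is limma's moderated standard error. Lists used the brightest probe set of each gene. Members, lists and array sets were chosen with earlier results of these data known. Genes named were all members, PEA15, up to 4 called genes per list by adjusted p (or the brightest where none was called) and the 5 nearest patterns to the member probe set with the smallest p. The number of arrays, 3 per line, limits the precision. Outside this rule EGR1, KRT8, PAX8, ERBB2, MMP3, MMP9, MMP13 and the remaining called targets were named with their values in view. Simulated data with known changes were used to check the fit. On the log2 scale it recovered 48% of changes of 0.5, 92% of 1, 100% of 2 and 80% of -1. A difference that did not pass is therefore no evidence of no change. Alternatives covered normalization, low signals, the variance prior, array weights, blocks and omission of each array. Same-numbered arrays deviated together for replicates 1 and 3 (r = 0.45 and 0.44) and not for 2 (-0.040), so numbers were not taken as pairs.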

Additional observations from a re-analysis of the deposited data

How the results depend on the processing

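Under every alternative run (quantile normalization, median centring, probe sets above the median signal, no variance trend, array weights, a replicate block, the array sets as a block, and omission of each array) the differences of FOSL2, FOSL1 and the brightest ATF3 probe set kept their direction. On these probe sets the lines did not overlap, so omission of 1 array could not turn the direction. The variance prior, the signal filter and the replicate block leave the size of a difference unchanged, so they could not turn it either. Called member probe sets, 7 in the main fit, numbered 6 to 10 without omissions and 1 to 5 with an array left out, lowest without S116A 1. The 2 members called on their brightest probe set (FOSL2 and FOSL1) became 1 with quantile normalization, 1 with no variance trend, 3 with array weights, 3 with the array sets as a block (ATF3 added in both), 4 with the replicate block and 0 to 2 on omissions. The 4672 probe sets called in all became 7340 with the replicate block, 8099 with the array sets as a block and 2608 to 4674 on omissions, and the 25 called genes of the pathway lists became 38, 40 and 12 to 24. The replicate block called ATF3 (limma adjusted p = 0.0018) and MAFF (0.028) lower beside FOSL1. Directions turned for differences that passed in neither setting. With array weights the dimmest JUN probe set read 0.024, JUNB -0.085 and the dimmest JUND probe set 0.0028, and with the array sets as a block the brighter PEA15 probe set read 0.0014. On omissions the range crossed 0 for FOSB (-0.55 to 0.045), JUNB (-0.13 to 0.19), these JUN (-0.15 to 0.086) and JUND (-0.053 to 0.036) probe sets, BATF (-0.0072 to 0.073), DCN (-0.034 to 0.074) and CD3E (-0.0060 to 0.11). The alternatives for single list genes and PEA15 were added after seeing the data. Omissions leave fewer arrays, and for the other changes the cause was not tested. With no detection calls at hand, signal over background could not be judged.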

Other observations

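Of 9 heat shock genes measured, 2 were lower in S116D, 0 higher and 7 did not pass, with a median difference of -0.17, where 11.0% of all genes were called and 4.82% were lower. The lower ones became 3 with quantile normalization, 4 with array weights or after dropping dimmer probe sets, and 5 with the replicate block or the array sets as a block. BAG3, a co-chaperone, read 11.00, 10.74 and 10.92 in S116D, against 11.58, 11.70 and 11.57 in S116A, a difference of -0.73 (limma adjusted p = 0.0020). HSPH1, a chaperone of the HSP110 family, read 12.73, 13.00 and 12.76 in S116D, against 13.34, 13.55 and 13.38 in S116A, a difference of -0.59 (limma adjusted p = 0.0062). HSPH1 was called on 2 of 3 probe sets. The lines did not overlap for either gene, and both were called under every alternative run.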
